A study of Homo sapiens with 6 samples.

Results

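The S100 genes encode small calcium-binding proteins, each built around a pair of EF-hand motifs, that mostly work as dimers. On binding calcium they expose a surface that grips a partner such as an annexin, a myosin heavy chain or p53. Several also leave the cell and act on receptors outside it. In lung and other lining epithelia they are known for roles in membrane repair, barrier defence and tumour spread, and most of their genes lie side by side on chromosome 1.

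The 10 genes described here were given as a list (S100A2, S100A4, S100A6, S100A8, S100A9, S100A10, S100A11, S100A13, S100A14 and S100P) and found by Ensembl identifier among 50868 listed genes. The identifiers of all 10 were present, and 9 of them passed the filter on low values. The study holds 6 RNA-seq libraries of human cells labelled A549, a non-small cell lung cancer line, 3 from cells given an siRNA against SF3B4 and 3 from cells given a scramble siRNA as control. SF3B4 encodes a subunit of the splicing factor SF3b, and the question was how transcript levels change when it is depleted. The replicates are called biological in the titles, with nothing on whether each was its own culture, so a p-value here reflects the spread among these 6 libraries and no more. Neither the siRNA sequence nor its dose or duration could be read from the labels.

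The labels, the column headers and the values themselves carried 3 points that bear on every value below. The genotype label of SF3B4 siRNA replicate 2 names SF3B5 and that of replicate 3 names SF3B6, whereas both are titled and listed as treated with SF3B4 siRNA, which was followed. The column headers of all 6 tables name another lung cancer line, H1650. Of 12 genes that A549 cells are known for expressing, 5 stayed below 1 FPKM in every library (AKR1C1, AKR1C2, ALDH1A1, ALDH3A1 and CDH2), while 6 of 6 epithelial markers were tested and present. FPKM is the number of sequenced fragments per kilobase of transcript, scaled to the library's depth, so it allows levels of different genes to be compared. The size of 1 fragment in the deposited values implied 17513135 to 18545994 fragments per library. SF3B4 itself stood at 22, 17.7 and 22.3 FPKM in SF3B4 siRNA cells, against 88.6, 92.0 and 93.8 FPKM in control cells.

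The transcripts of S100A11, S100A10, S100A9 and S100A6 were among the most abundant in these cells, and the make-up of the 10 differed between the groups. The 10 genes together summed to 3834, 4055 and 3679.5 FPKM in SF3B4 siRNA libraries, against 4324, 4574 and 4754.5 FPKM in control libraries. That was 1.40%, 1.49% and 1.36% of all FPKM in SF3B4 siRNA libraries, against 1.57%, 1.64% and 1.74% in control libraries. S100A11 and S100A10 made up 48.4%, 48.6% and 47.4% of the sum in SF3B4 siRNA libraries, against 69.3%, 70.8% and 71.4% in control libraries. S100A9 alone made up 32.6%, 34.0% and 33.5% in SF3B4 siRNA libraries, against 15.7%, 15.2% and 14.3% in control libraries. In none of these shares did the groups overlap. In bulk RNA, fewer cells with a transcript and less of it per cell cannot be told apart.

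**Figure D1:**
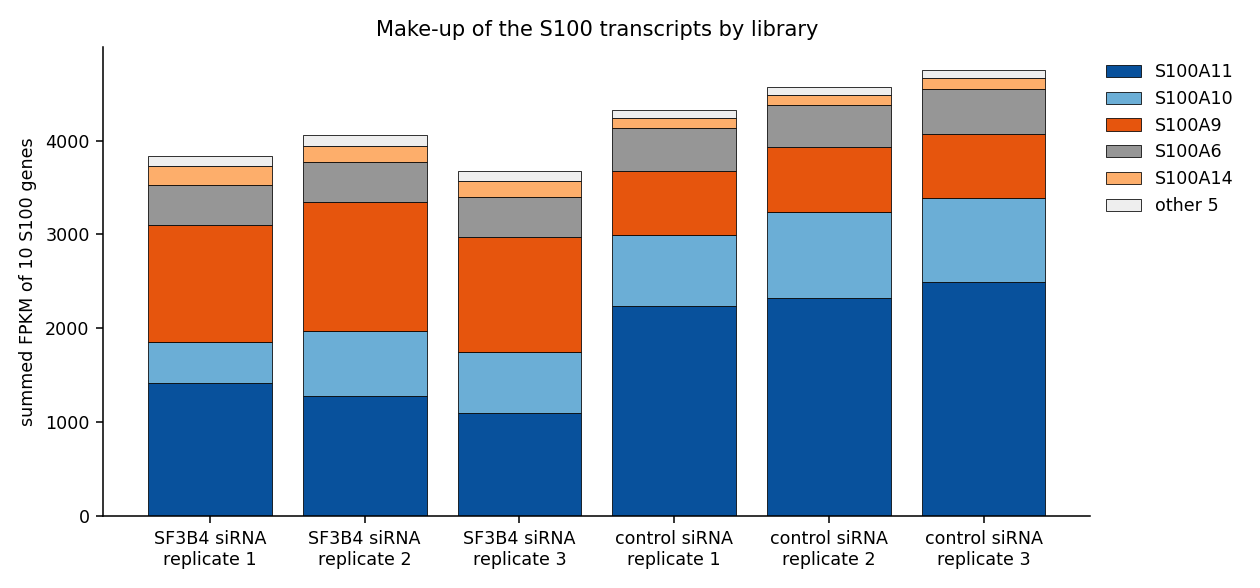
Summed FPKM of the 10 S100 genes in each library, stacked by gene with the 5 scarcest joined, and with the SF3B4 siRNA libraries on the left and the control libraries on the right. The S100A9 segment is larger and the S100A11 segment smaller in all 3 SF3B4 siRNA libraries.

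Among the 9 tested genes, 3 rose (S100A8, S100A9 and S100A14), 2 fell (S100A10 and S100A11) and 4 did not pass the test (S100A2, S100A4, S100A6 and S100A13). The test was limma on log2(FPKM + 0.1) over the 9685 genes with at least 1 FPKM in at least 3 libraries, with Benjamini-Hochberg adjustment over all of them and a threshold of 0.05. By the same test 34.1% of all tested genes were called, 16.0% higher and 18.1% lower, so calls were common throughout the transcriptome. Changes of at least 2-fold were rarer, at 1.09% of tested genes higher and 2.95% lower. Of the 354 tested genes with a mean of at least 100 FPKM, 45.5% were called. The median log2 fold change was -0.11 over the 9 genes, against -0.0035 over all tested genes. The 5 called genes changed by less than 2-fold, and their absolute log2 fold changes exceeded those of 82.4% to 94.1% of tested genes.

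**Figure D2:**
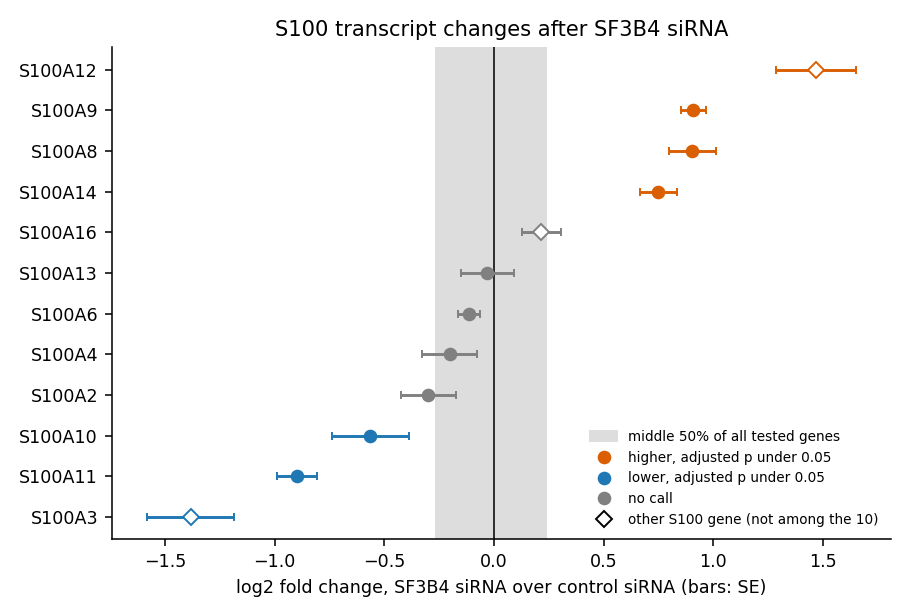
Log2 fold change of the 12 tested S100 genes, SF3B4 siRNA over control siRNA, with standard errors from limma; filled circles are the listed genes and open diamonds are other S100 genes. The grey band holds the middle 50% of all tested genes, from -0.27 to 0.24, and the 5 called members lie outside it.

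S100A8 and S100A9, the secreted pair, rose together. Their products form calprotectin, a heterodimer that binds zinc and manganese, starves microbes of these metals and signals through AGER and TLR4; it is most abundant in neutrophils and is also made by stressed or inflamed epithelium. S100A9 stood at 1248, 1378 and 1233 FPKM in SF3B4 siRNA cells, against 679, 694 and 679.7 FPKM in control cells. All 3 SF3B4 siRNA libraries lay well above the 3 control libraries, which were close to each other. This was a log2 fold change of 0.91 ± 0.06 (SE), a 1.88-fold rise (limma adjusted p = 9.6e-05). S100A8 stood at 42.2, 54.9 and 44.5 FPKM in SF3B4 siRNA cells, against 25.4, 26.5 and 23.3 FPKM in control cells. Again the groups did not overlap, with SF3B4 siRNA replicate 2 the highest for both genes. S100A8 thus had a log2 fold change of 0.90 ± 0.11 (SE), a 1.87-fold rise (limma adjusted p = 0.00091).

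The ratio within the pair overlapped between the groups. S100A9 transcripts outnumbered S100A8 transcripts 29.5, 25.1 and 27.7 times in SF3B4 siRNA libraries, against 26.7, 26.2 and 29.2 times in control libraries. The mean ratio was 27.5 ± 2.24 in SF3B4 siRNA cells and 27.4 ± 1.6 in control cells (SD, n = 3 each).

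S100A12, which lies between S100A8 and S100A9 and encodes another secreted AGER ligand, is not among the 10 genes but rose as well. It stood at 6.51, 7.25 and 4.90 FPKM in SF3B4 siRNA cells, against 1.80, 2.61 and 2.13 FPKM in control cells (log2 fold change 1.47 ± 0.18 SE, limma adjusted p = 0.0011). Over its whole annotated exonic length these are at most 47 to 68 fragments in SF3B4 siRNA libraries and 17 to 24 in control libraries. Because these 3 genes are typical of myeloid cells, leukocyte markers were read beside them. Of 10 such markers, the summed level was 35.6 to 39.1 FPKM in SF3B4 siRNA libraries and 34.8 to 43.3 FPKM in control libraries. Most of that sum was CD68, at 27.0 ± 1.16 FPKM in SF3B4 siRNA cells and 26.7 ± 4.15 FPKM in control cells (SD, n = 3 each), which was not called. PTPRC, which encodes the CD45 antigen of all leukocytes, and the granule genes LYZ and MPO were listed at 0 in every library. CD14 was higher (5.62 ± 0.945 FPKM in SF3B4 siRNA cells and 2.59 ± 0.239 FPKM in control cells, SD, n = 3 each; limma adjusted p = 0.0013), and CSF1R was lower (3.93 ± 0.0954 FPKM in SF3B4 siRNA cells and 10.2 ± 0.28 FPKM in control cells, limma adjusted p = 8.8e-05). Squamous markers, another setting of high S100A8 and S100A9, summed to 9.15 to 12.3 FPKM over 7 genes in SF3B4 siRNA libraries and 4.36 to 6.48 FPKM in control libraries. Of these 7, 5 were below 1 FPKM in all libraries, KRT5, KRT14 and TP63 among them. DSG3 made up most of the sum, at 9.0 ± 1.59 FPKM in SF3B4 siRNA cells and 3.49 ± 0.629 FPKM in control cells (SD, n = 3 each). The last of the 7, PKP1, was not tested and went the other way, at 0.626, 0.698 and 0.696 FPKM in SF3B4 siRNA cells, against 1.68, 1.15 and 0.845 FPKM in control cells. The part of these markers in the S100 changes was not tested.

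The sequences just upstream of S100A8 and S100A9 are shown because the pair moved together. Each is 250 bases that end at a RefSeq start site (GRCh38.p14), with the TATA box letters TATAAA in capitals, and was also searched on both strands for the C/EBP letters TTGCNNAA and the AP-1 letters TGANTCA.
S100A9, chr1:153357604-153357853, plus strand: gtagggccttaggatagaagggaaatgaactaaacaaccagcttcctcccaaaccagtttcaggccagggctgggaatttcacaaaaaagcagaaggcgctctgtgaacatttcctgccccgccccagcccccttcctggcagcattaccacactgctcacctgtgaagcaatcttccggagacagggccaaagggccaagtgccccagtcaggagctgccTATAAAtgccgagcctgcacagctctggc
S100A8, chr1:153391074-153391323, minus strand: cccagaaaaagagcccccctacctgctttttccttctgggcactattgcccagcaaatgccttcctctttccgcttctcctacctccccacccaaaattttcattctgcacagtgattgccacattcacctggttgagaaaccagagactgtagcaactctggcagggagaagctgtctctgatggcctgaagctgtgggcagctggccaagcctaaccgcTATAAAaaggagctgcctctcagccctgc
In both windows TATAAA began 29 bases before the start site. RefSeq gives S100A8 3 start sites, and the window of the one farthest upstream lacked this box. The TATAAA letters were present on the gene's own strand in 6.80% of all 35116 such windows. Counted by gene, at least 1 window held them in 8.38% of 27305 genes and in 10 of 19 S100 genes. Among the 10 listed genes 5 had them: S100A8, S100A9, S100A4, S100A13 and S100P. Of these, S100A8 and S100A9 rose, S100A4 and S100A13 were not called, and S100P was not tested. The C/EBP letters (9.05% of all windows) and the AP-1 letters (6.57%) were not in these windows of S100A8 and S100A9. The window of S100A12, which lies between them and also rose, held TATAAA, the C/EBP letters and the AP-1 letters. The C/EBP letters were also in the window of S100A11, which fell. The AP-1 letters were also in windows of S100A3, which fell, S100A2, which was not called, and S100A5, which was not tested. A match is a description of letters and not a site in use.

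S100A14, an epithelial member whose protein is found at cell borders, rose too. It stood at 202, 170.3 and 171 FPKM in SF3B4 siRNA cells, against 102, 106 and 115 FPKM in control cells, without overlap. Its log2 fold change of 0.75 ± 0.08 (SE) was a 1.68-fold rise (limma adjusted p = 0.00071). Its close neighbour S100A16, 1.1 kb away and not among the 10 genes, stood at 138, 174 and 162 FPKM in SF3B4 siRNA cells, against 128, 139 and 139 FPKM in control cells. The groups overlapped for S100A16, and its log2 fold change of 0.22 ± 0.09 (SE) did not pass (limma adjusted p = 0.0999). It passed in 1 of 16 other settings, without SF3B4 siRNA replicate 1 (adjusted p = 0.024, with a range of 0.024 to 1.0 over the settings). The ratio of S100A16 to S100A14 was 0.684, 1.02 and 0.945 in SF3B4 siRNA libraries, against 1.26, 1.31 and 1.21 in control libraries, without overlap; with 3 libraries against 3, an exact permutation test of a ratio cannot go below p = 0.1, so no ratio was called.

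S100A11 and S100A10, the annexin partners and the most abundant members in control cells, were both lower. S100A11 pairs with annexin A1 at membranes and has a part in plasma membrane repair. It stood at 1417, 1283 and 1103 FPKM in SF3B4 siRNA cells, against 2242, 2323 and 2491 FPKM in control cells. Every SF3B4 siRNA library was far below every control library. Its log2 fold change of -0.90 ± 0.09 (SE) left 53.9% of the control level (limma adjusted p = 0.00053). S100A11 ranked 20th, 21st and 30th of all listed genes by FPKM in SF3B4 siRNA libraries, against 13th, 13th and 11th in control libraries.

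The 3' UTR of S100A11 holds a short sequence that earlier results of these data found more often in transcripts that fell, the 7-mers GCCTTCA and CCTTCAA, here joined as 8 bases. The surrounding 30 bases are shown with those 8 in capitals (GENCODE 29, GRCh38, chr1:152032627-152032656, minus strand, site at 152032638 to 152032645).
S100A11: ccttggccctgGCCTTCAAacccaccccct
The site begins at base 17 of a 3' UTR of 156 bases. Of the 10 listed genes, all searched in 1 transcript each, S100A11 was the 1 with either 7-mer. The other gene that fell, S100A10, had neither in its 248 bases, and nor did the 3 that rose. Among all 8383 searched genes, 16.6% carried either 7-mer, 32.0% of those that fell, 8.84% of those that rose and 14.2% of those without a call. The 7-mers were picked from these same data, so the shares describe them and test nothing.

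S100A10, also called p11, differs from its relatives in that its EF-hands no longer bind calcium. It is the constant partner of annexin A2, with which it forms a complex at the plasma membrane that binds plasminogen and AHNAK. S100A10 stood at 437, 689 and 642 FPKM in SF3B4 siRNA cells, against 756, 914 and 903 FPKM in control cells. The groups did not overlap, but SF3B4 siRNA replicate 1 was far below the other two, and control replicate 1 was the lowest control. Its log2 fold change was -0.56 ± 0.18 (SE, limma adjusted p = 0.048). This call was lost in 8 of 16 other settings (adjusted p over all 16 from 0.0072 to 0.30), among them when SF3B4 siRNA replicate 3 (0.072), control replicate 2 (0.13) or control replicate 3 (0.13) was left out. Without SF3B4 siRNA replicate 1 the log2 fold change was -0.36 (adjusted p = 0.030). The lowest limma adjusted p, 0.0072, came with the replicate number as a block. The labels do not say whether libraries of the same number are related.

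The ratio of S100A11 to S100A10 varied most among SF3B4 siRNA libraries, with replicate 1 the highest. S100A11 outnumbered S100A10 3.25, 1.86 and 1.72 times in SF3B4 siRNA libraries, against 2.96, 2.54 and 2.76 times in control libraries, and the groups overlapped. The ratio of S100A11 to S100A9 was 1.14, 0.931 and 0.894 in SF3B4 siRNA libraries, against 3.30, 3.35 and 3.66 in control libraries, which restates the opposite calls of these genes and is no further test.

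**Figure D3:**
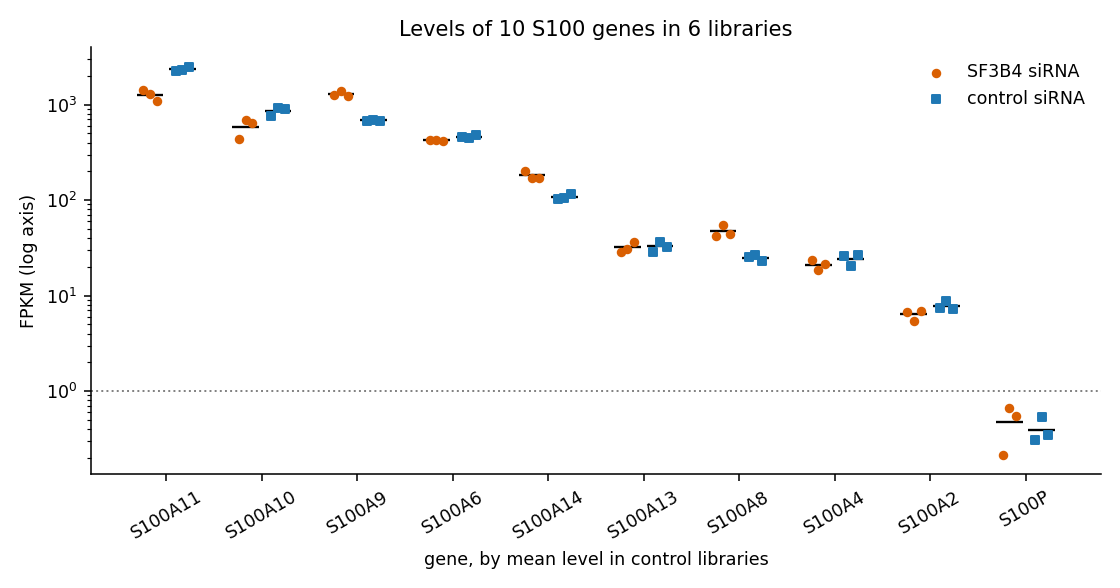
FPKM of each S100 gene in every library on a log axis, SF3B4 siRNA left of control siRNA, with the group mean as a bar and a dotted line at 1 FPKM. S100A8, S100A9 and S100A14 sit higher and S100A10 and S100A11 lower in all SF3B4 siRNA libraries than in any control library, and S100P stays below 1 FPKM. The groups did not overlap in 49.5% of all tested genes, the uncalled S100A2 and S100A6 among them.

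S100A6, S100A4 and S100A2 had lower means after SF3B4 siRNA, and none passed the test. S100A6, or calcyclin, binds the ubiquitin ligase adaptor CACYBP and stood at 428, 424 and 421 FPKM in SF3B4 siRNA cells, against 457, 445 and 477 FPKM in control cells. Its groups did not overlap, as in 49.5% of all tested genes, but its log2 fold change was -0.11 ± 0.05 (SE, limma adjusted p = 0.12). The difference disappeared with quantile normalization. S100A4, or metastasin, binds the tail of non-muscle myosin MYH9 and is known from metastatic cells. It stood at 23.5, 18.5 and 21.5 FPKM in SF3B4 siRNA cells, against 26.2, 20.6 and 26.4 FPKM in control cells (log2 fold change -0.20 ± 0.13 SE, limma adjusted p = 0.25), with overlap. S100A2, a mainly nuclear member that binds p53, stood at 6.67, 5.42 and 6.96 FPKM in SF3B4 siRNA cells, against 7.42, 8.77 and 7.25 FPKM in control cells. Its groups did not overlap, but the log2 fold change of -0.30 ± 0.12 (SE) missed the threshold (limma adjusted p = 0.10).

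S100A13 was not called, and S100P was not tested. S100A13 serves the release of FGF1 and IL1A, proteins that leave the cell without a signal sequence. It stood at 28.4, 31.0 and 36.7 FPKM in SF3B4 siRNA cells, against 28.8, 36.7 and 32.6 FPKM in control cells, with full overlap (log2 fold change -0.03 ± 0.12 SE, limma adjusted p = 0.87). Of its exonic length, 10.6% is shared with S100A1 on the opposite strand and 24.2% with an unnamed transcript on its own strand, so its value is uncertain where the authors' counting could split reads. S100P, which binds ezrin and signals through AGER and is known from several carcinomas, was the 1 member under the filter. It was listed at 0.215, 0.659 and 0.542 FPKM in SF3B4 siRNA cells, against 0.31, 0.531 and 0.346 FPKM in control cells. With its whole annotated exonic length these values stand for at most 4.8 to 15.3 fragments in SF3B4 siRNA libraries and 7.2 to 12.1 fragments in control libraries, too few to show a modest difference.

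The order of levels also differed between the groups. In SF3B4 siRNA cells the order was S100A9 (1286 ± 79.5 FPKM), S100A11 (1268 ± 158), S100A10 (589 ± 134), S100A6 (424 ± 3.78), S100A14 (181 ± 18.2), S100A8 (47.2 ± 6.75), S100A13 (32.1 ± 4.25), S100A4 (21.2 ± 2.5), S100A2 (6.35 ± 0.82) and S100P (0.472 ± 0.23), as mean ± SD with n = 3. In control cells it was S100A11 (2352 ± 127 FPKM), S100A10 (858 ± 87.8), S100A9 (684 ± 8.46), S100A6 (459.7 ± 16.2), S100A14 (107 ± 6.39), S100A13 (32.7 ± 3.96), S100A8 (25.1 ± 1.62), S100A4 (24.4 ± 3.28), S100A2 (7.81 ± 0.834) and S100P (0.395 ± 0.118). The libraries of S100A9 and S100A11 overlapped in SF3B4 siRNA cells, and those of S100A8 and S100A4 overlapped in control cells. All other neighbours in both orders were separate in their 3 libraries.

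Of the 10 S100 genes outside the list, 3 were tested. S100A3, best known from hair cuticle, had the largest fall of the 12 tested S100 genes. It stood at 1.73, 0.943 and 1.47 FPKM in SF3B4 siRNA cells, against 3.57, 3.84 and 3.54 FPKM in control cells (log2 fold change -1.38 ± 0.20 SE, limma adjusted p = 0.0020). With its whole annotated exonic length these low values stand for at most 16.3 to 28.9 fragments in SF3B4 siRNA libraries and 61.5 to 65.1 in control libraries. With a pseudocount of 1 its log2 fold change was -0.98 (limma adjusted p = 0.0012). S100A7A, S100B, S100G and S100Z were listed at 0 in every library. S100A1, S100A5 and S100A7 were listed below 1 FPKM throughout. Of the S100A11 pseudogenes in the tables, S100A11P1 reached 0.173 FPKM in 1 library and the others were listed at 0.

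Along chromosome 1 the S100A genes moved in both directions, and adjacent genes did not always share one. Positions are from GENCODE 29 (GRCh38). S100A10 (151982915 to 151994390) and S100A11 (152032506 to 152047907) form a pair 38.1 kb apart at one end, both lower. Across a gap of 1309.9 kb lie S100A9 (153357854 to 153361027), S100A12 and S100A8 (153390032 to 153391188), all higher. After S100A7A and S100A7 come S100A6 (153534599 to 153536244), S100A5, S100A4 (153543613 to 153550136), S100A3 and S100A2 (153561108 to 153567890), of which S100A3 was called; S100A7A, S100A7 and S100A5 were not tested. S100A3 lies within the span of S100A4 on the same strand, but their exons do not overlap. S100A16, S100A14 (153614255 to 153616986) and S100A13 (153618787 to 153631360) follow, with a call for S100A14, and S100A1, which was not tested, ends the row. S100A13 had a log2 fold change of -0.03 although it lies 1.8 kb from S100A14, which rose. S100P is apart from the others, on chromosome 4 (6693069 to 6697170).

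**Figure D4:**
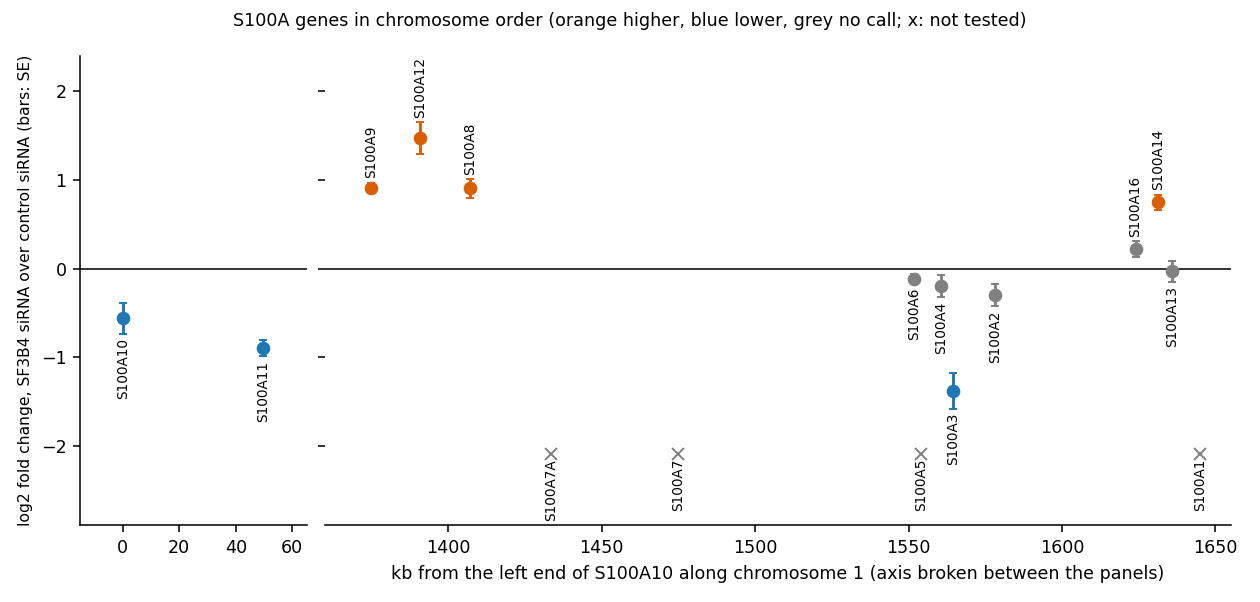
Log2 fold change of S100A genes against their distance in kb from the left end of S100A10 on chromosome 1, with standard errors; crosses mark genes that were not tested. The S100A10 and S100A11 pair lies below 0, the S100A9, S100A12 and S100A8 trio above 0, and the remaining genes on both sides.

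Other genes of the same region were also read. Neighbours here were genes outside the S100 family that lie between S100A10 and S100A1 or up to 500 kb beyond either. Of 118 listed, 24 were tested, of which 6 rose, 4 fell and 14 had no call, where 34.1% of all tested genes were called. The largest changes among them were those of TDRKH-AS1 (2.01 ± 0.139 FPKM in SF3B4 siRNA cells and 0.957 ± 0.216 FPKM in control cells), DENND4B (4.28 ± 0.226 FPKM in SF3B4 siRNA cells and 7.98 ± 0.492 FPKM in control cells), the natriuretic peptide receptor gene NPR1 (2.46 ± 0.158 FPKM in SF3B4 siRNA cells and 1.37 ± 0.178 FPKM in control cells) and the fatty acid transporter gene SLC27A3 (0.66 ± 0.163 FPKM in SF3B4 siRNA cells and 1.09 ± 0.0381 FPKM in control cells; SD, n = 3 each). SLC27A3 lost its call in 5 of 12 other settings. The span also holds the epidermal differentiation complex, whose genes build the cornified envelope of skin. Of 26 such genes found, 15 were listed at 0 in every library and 3 were tested. Involucrin (IVL), a scaffold of that envelope, fell to 17.7 ± 0.558 FPKM in SF3B4 siRNA cells, against 24.7 ± 0.839 FPKM in control cells (log2 fold change -0.48, limma adjusted p = 0.0016), and SPRR1B and SPRR3 had no call.

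Binding partners and receptors of S100 proteins made up a further list. Of 27 such genes 16 were tested, and limma called 3 higher and 0 lower, beside 16.0% higher and 18.1% lower over all tested genes, with 3 higher and 1 lower at an unadjusted p under 0.05 and a median log2 fold change of 0.12. MYH9, the myosin bound by S100A4, rose to 168 ± 4.37 FPKM in SF3B4 siRNA cells, against 132 ± 6.59 FPKM in control cells (log2 fold change 0.35, limma adjusted p = 0.0037); this call was lost in 1 of 16 other settings, against a 1.2-fold minimum (adjusted p = 0.36). ANXA6 rose to 1.88 ± 0.0747 FPKM in SF3B4 siRNA cells, against 1.06 ± 0.0661 FPKM in control cells (log2 fold change 0.77, limma adjusted p = 0.0021). ANXA11, a partner of S100A6, was at 28.4 ± 0.387 FPKM in SF3B4 siRNA cells and 24.8 ± 1.15 FPKM in control cells, a call at adjusted p = 0.049 that was lost in 11 of 16 other settings (adjusted p 0.032 to 1.0). ANXA2, the partner of S100A10, was at 94.9, 119.9 and 104 FPKM in SF3B4 siRNA cells, against 100.4, 87.2 and 91.8 FPKM in control cells, and was not called (limma adjusted p = 0.18). Its pseudogene ANXA2P2 was listed at 677, 763 and 720.1 FPKM in SF3B4 siRNA cells, against 730.04, 626 and 621 FPKM in control cells, so the level of ANXA2 is uncertain. ANXA1, the partner of S100A11 and the 1 gene lower at an unadjusted p, was at 33.8, 36.47 and 35.3 FPKM in SF3B4 siRNA cells, against 45.8, 42.3 and 36.51 FPKM in control cells, without overlap (log2 fold change -0.23, limma adjusted p = 0.085). AHNAK (43.7 ± 1.27 FPKM in SF3B4 siRNA cells and 44.1 ± 8.72 FPKM in control cells) and CACYBP (3.34 ± 0.559 FPKM in SF3B4 siRNA cells and 4.26 ± 0.518 FPKM in control cells) were not called. The receptor genes AGER and TLR4 stayed below 1 FPKM in all libraries.

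EF-hand genes outside the S100 family went both ways. Of 35 such genes 29 were tested, 8 rose and 8 fell, beside 16.0% higher and 18.1% lower over all tested genes, with a median log2 fold change of 0.08. The 4 largest changes among called genes were falls. EFHD1, a mitochondrial calcium sensor, was at 1.64 ± 0.215 FPKM in SF3B4 siRNA cells and 7.89 ± 1.67 FPKM in control cells (log2 fold change -2.19). CAPNS1, the small calpain subunit, was at 49.5 ± 8.06 FPKM in SF3B4 siRNA cells and 108 ± 10.3 FPKM in control cells (-1.14). The actin crosslinker genes ACTN4 (91.5 ± 8.01 FPKM in SF3B4 siRNA cells and 172 ± 6.17 FPKM in control cells, -0.91) and ACTN1 (21.2 ± 1.45 FPKM in SF3B4 siRNA cells and 32.3 ± 2.47 FPKM in control cells, -0.60) followed. The adjusted p from limma reached 0.0017 for ACTN1 and was lower for the other 3.

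**Figure D5:**
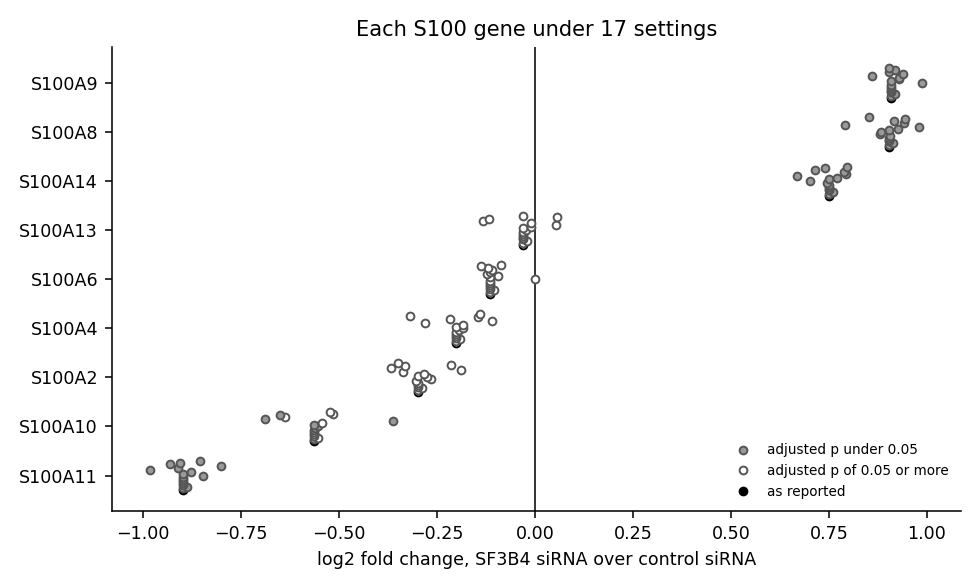
Log2 fold change of the 9 tested S100 genes as reported (black) and under 16 other settings, filled where the adjusted p was under 0.05. The calls of S100A8, S100A9, S100A11 and S100A14 hold in all 17, and that of S100A10 in 9 of them.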

How the data were processed

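RNA from 6 samples was sequenced by the submitters, and groups and replicate numbers were read from the sample titles. Each table deposited by the authors lists FPKM per gene for 1 library, per the file headers. The submitters' processing notes name HISAT2 2.0.4, StringTie 1.3.0 and GRCh38 but give no roles; which annotation and strand setting were used is not stated there. Because FPKM is already normalized, count models were not applied. Of low values in genes with 1 exon, 99.4% to 99.6% were whole fragments to within 0.02, which gave the implied depth and covers counting error only.

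A gene name table matched 49659 of 50868 identifiers to symbols, and positions, exons and 3' UTRs were read from GENCODE 29. Values were analysed as log2(FPKM + 0.1), a scale that understates changes of low genes, with limma 3.58.1 in R 4.3.3 (empirical Bayes with trend and robust option, two-sided). Ratios within a library are given as descriptions. The members and lists were chosen with earlier results of these data known. Genes named besides the members are all other tested S100 genes and, per list, up to 4 called genes with the largest change, ANXA2, AHNAK and CACYBP as defining partners, and genes or pseudogenes that overlap or copy a member. ANXA1, AGER, TLR4, SPRR1B, SPRR3, PKP1 and the other marker genes named fall outside this rule and were chosen after their values were seen. Alternatives changed the pseudocount, filter, scaling, test options, replicate block and, in turn, each library. Fibroblast and endothelial markers, 8 of 9 below 1 FPKM throughout, summed to 3.02 to 3.34 FPKM in SF3B4 siRNA libraries and 2.26 to 2.38 FPKM in control libraries.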

Additional observations from a re-analysis of the deposited data

How the results depend on the processing

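S100A8, S100A9, S100A11 and S100A14 kept their direction and their call in all 16 other settings, so 3 S100 genes were called higher in each. The number called lower was 1 instead of 2, since S100A10 was lost, with median ratio scaling, when limma tested against a 1.2-fold minimum, with neither trend nor robust option, without a filter on low values and after rescaling to TPM, and was 1 to 2 when each library was left out. Over all genes, a mean FPKM of at least 5 gave 1027 higher and 940 lower, and the 1.2-fold minimum gave 420 higher and 693 lower, against 1546 and 1752 as reported. Uncalled values changed sign for S100A6 with quantile normalization (0.00019), for S100A13 when libraries were left out (-0.13 to 0.056), and for AHNAK with quantile normalization (-0.034) and when libraries were left out (-0.10 to 0.16); the cause was not tested. With the replicate block, 3 S100 genes were higher and 2 lower, with 1290 higher and 1537 lower over all genes. Deviations of libraries with the same number correlated at -0.080, 0.024 and -0.12, against -0.065 to 0.14 for libraries with different numbers. With 3 libraries per group, this cannot decide whether the number pairs them. Rescaling to TPM tested 13640 genes. With 3 libraries per group and S100P near the floor, small differences could not be shown.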
